A study of Rattus norvegicus with 65 samples.

Results

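The small leucine-rich proteoglycans (SLRPs) are secreted matrix proteins, and their transcripts were followed in 65 cultures of primary heart cells from newborn rats exposed to 5-fluorouracil (5FU), acetaminophen (Ace), doxorubicin (Dox) or solvent. The members were chosen by family membership, from a list of 8 symbols drawn up with expression results in view: Dcn, Bgn, Lum, Fmod, Aspn, Ogn, Prelp and Omd. The values that entered this choice were those of Ace against its control at 24 h, where a fall of Aspn was already known. Values of the members in Ace at 24 h are therefore a description with no test. Of the 8 symbols, 6 matched a gene among the 14554 genes measured, and Ogn and Omd are not analysed here. All 6 genes passed the filter on low counts, of at least 10 counts in at least 1 library. Dcn, Bgn, Lum, Fmod and Prelp had at least 10 counts in each of the 65 libraries, and Aspn in 63.

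The study followed the responses of rat heart muscle cells to 3 drugs. After 6 h or 24 h of exposure, polyadenylated RNA was sequenced from cells in 10 mM 5FU beside their control in 1% DMSO (DMSO1), and from cells in 2.5 mM Ace or 1.25 µM Dox beside a control in 0.25% DMSO (DMSO2). At each time there were 6 libraries of 5FU, 6 of DMSO1, 7 of Dox and 7 of DMSO2, while Ace had 6 libraries at 6 h and 7 at 24 h. The library totals ran from 14332827 to 25738297 estimated counts, with a median of 19219714. Within a group the libraries are parallel cultures of 1 preparation that pooled cells from several litters, serum starved overnight before exposure, and no sorting by cell type was recorded. The p-values therefore measure the spread between parallel cultures and not between animals, and Ace and Dox share the libraries of DMSO2.

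An SLRP has a core of leucine-rich repeats, which binds collagen fibrils, and in most members this core carries chains of chondroitin, dermatan or keratan sulphate. The family sets the width and spacing of collagen fibrils and holds growth factors, above all those of the TGF-β family, in the matrix. In the heart SLRPs are made mainly by fibroblasts, and their amount changes with scarring.

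Levels are given as CPM, counts relative to a common, scaled library total. They were not divided by gene length, so they are compared between groups and not between genes. For a list of marker genes, the gene that adds most to the summed CPM over all 65 libraries is named, and it need not be the highest in each group. A difference is a log2 fold change, given with its standard error (SE), and genes with FDR < 0.01 over all 14554 genes in edgeR's quasi-likelihood test are called differentially expressed genes (DEGs). Because the list was drawn up with results in view, the FDR of a member is not independent evidence. The distance of each library from the mean of the others in its group, as a root mean square log2 difference over 10817 genes, was 0.354 for library 1 of DMSO1 at 24 h, 0.344 for library 7 of Dox at 24 h and 0.338 for library 1 of 5FU at 6 h. The other libraries were at 0.130 to 0.306. These 3 libraries stood apart, and library 7 of Dox also had the highest total, so the members' differences between a drug and its control at 24 h are given with and without them, as are others where stated. Sums and counts of lists include them. Where the share of all genes in the same direction is not given, a list count is a description only. Library numbers are labels only.

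After 24 h, Dcn, Bgn, Lum, Fmod and Aspn stood below their control in every drug, and Prelp differed in direction between drugs. In 5FU against DMSO1 at 24 h, 5 of the 6 members were DEGs with lower levels, against 27.8% of all genes called lower, and 5 had ranges of CPM wholly below those of the control, against 20.6% of all genes. In Dox against DMSO2 at 24 h, 5 members were lower, against 41% of all genes, 1 member was higher, against 40.4%, and 5 lay wholly below the control, against 34.6%. The share of lower members thus stood above the share of all genes in both comparisons, while the 1 member that was higher did not. In Ace against DMSO2 at 24 h, 6 members were on the lower side of the threshold, beside 19.1% of all genes, and 5 did not overlap the control, beside 13.7%. The median log2 difference over the 6 members was −1.15 in 5FU, −1.04 in Ace and −1.80 in Dox, against −0.0094, −0.00082 and 0.0028 over all genes. In RNA from whole cultures, fewer cells of a type and less RNA per cell cannot be told apart.

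At 6 h the members differed less from their controls than at 24 h, except for Prelp in Ace. Its difference there was −0.47 at 6 h and −0.43 at 24 h. In 5FU against DMSO1 at 6 h, edgeR's quasi-likelihood test called 0 of the 6 members, against 47.9% of all genes called in either direction, with 3 members at an unadjusted p below 0.05 and 2 members, Dcn and Bgn, called by the Wald test of DESeq2. In Ace against DMSO2 at 6 h, Dcn, Lum and Prelp were lower, 3 members against 15.2% of all genes called lower, and these 3 did not overlap the control, against 12.1%. In Dox against DMSO2 at 6 h, Lum, Fmod and Aspn were lower, 3 members against 32.7% of all genes, and only Lum lay wholly below the control, 1 member against 22.9%. The Dox count at 6 h is therefore close to the background. Scaling by library size alone put the median of all genes at −0.15 in that comparison, so the Dox differences at 6 h are relative to genes whose scaled median is near 0.

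**Figure D1:**
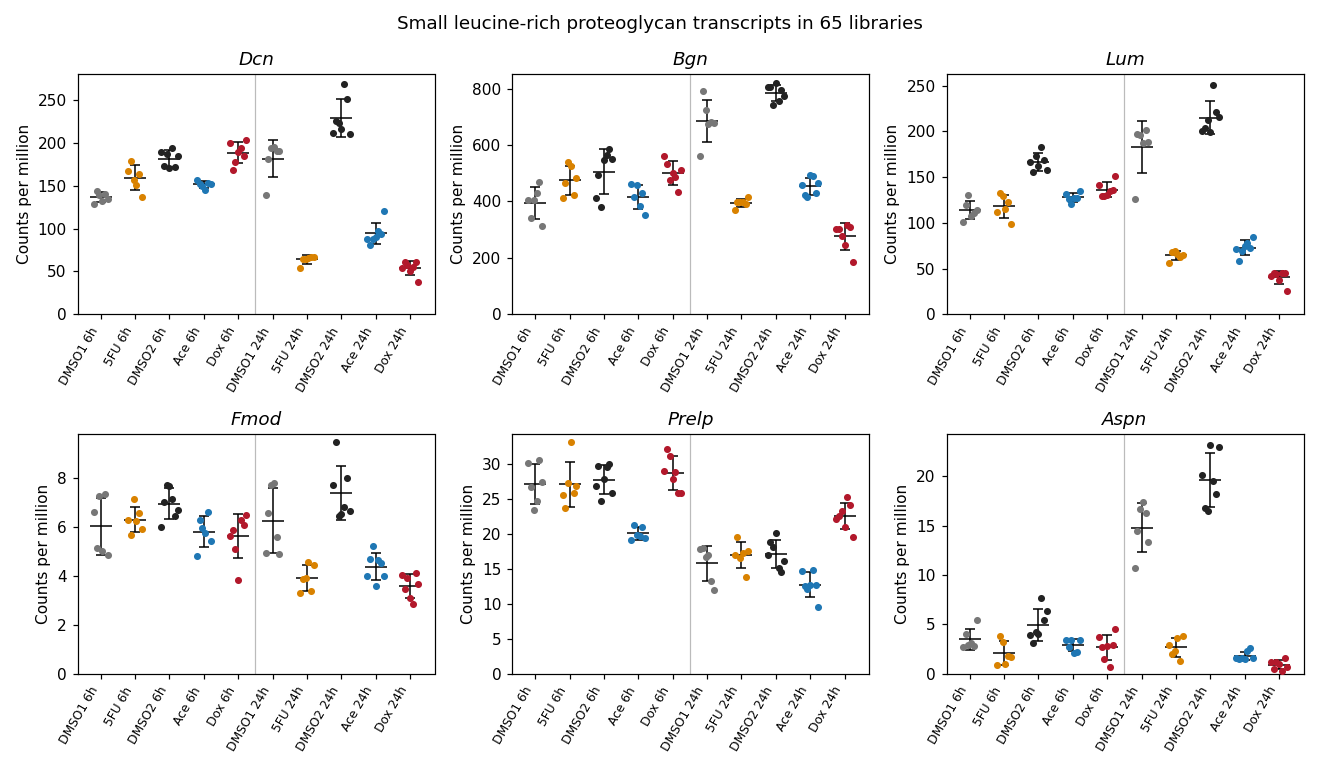
Levels of the 6 members in CPM (vertical axes, each starting at 0) in each of the 65 libraries (points), by group, with the mean of a group as a horizontal line, its SD as bars and a grey line between 6 h and 24 h. The Dox libraries at 24 h sat between 38.1 and 60.7 CPM for Dcn and between 0.231 and 1.58 for Aspn, below the DMSO2 libraries, while for Prelp they sat between 19.6 and 25.3.

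Decorin (Dcn) decorates collagen fibrils with a single glycosaminoglycan chain and binds TGF-β. In DMSO2 at 24 h its lowest, median and highest levels were 210.3, 224 and 269 CPM, compared with 38.1, 55.6 and 60.7 in Dox. The corresponding levels were 81.2, 90.8 and 121 in Ace. In DMSO1 at 24 h they were 139.5, 190.5 and 195, compared with 54.6, 65.6 and 67.2 in 5FU. Every drug library at 24 h thus lay below every library of the other 7 groups, Dox and 5FU overlapped each other, and Ace lay above both. Dcn fell in Dox by a log2 difference of −2.10 ± 0.075 (FDR = 2.22e-35, edgeR's quasi-likelihood test), lower in 7 of 7 libraries than the control median. It also fell in 5FU, at −1.51 ± 0.080 (FDR = 1.14e-24, same test), lower in 6 of 6 libraries. The difference in Ace, −1.28 ± 0.073, is given without a test. Without library 7 of Dox the difference was −2.0, and without library 1 of DMSO1 the 5FU difference was −1.57.

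At 6 h, Dcn had lowest, median and highest levels of 171, 185 and 195 CPM in DMSO2, and 145, 152 and 157 in Ace. In Dox at 6 h the levels were 168, 189 and 203. The Ace libraries lay wholly below the DMSO2 libraries, and the Dox libraries spanned them. Dcn fell in Ace, at −0.26 ± 0.074 (FDR = 0.00314, edgeR's quasi-likelihood test), lower in 6 of 6 libraries than the control median, while in Dox its difference was 0.052 with a 95% interval of −0.091 to 0.19. The levels were 128, 137 and 144 in DMSO1 and 137, 160.5 and 179 in 5FU, which overlapped at the low end of 5FU. The 5FU difference, 0.22 ± 0.077, did not reach the threshold (FDR = 0.0116, edgeR's quasi-likelihood test; higher in 5 of 6 libraries), but it was 0.26 with an FDR of 0.00392 without library 6 of 5FU, and 0.20 with an FDR of 0.0292 without library 1 of 5FU. It also passed with the Wald test of DESeq2 (0.23, FDR 0.00614), DESeq2 size factors (0.23, FDR 0.00794) and filterByExpr (0.23, FDR 0.00826).

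Biglycan (Bgn) is the closest relative of decorin, carries a pair of glycosaminoglycan chains and, when freed from the matrix, signals through Toll-like receptors. At 24 h its lowest, median and highest levels were 742, 796 and 819.8 CPM in DMSO2, against 184, 302 and 317 in Dox. In Ace they were 417, 458 and 492. In DMSO1 they were 561, 682 and 793, against 370.1, 397 and 418 in 5FU. None of the drug libraries at 24 h reached the lowest library of its control, and the Dox libraries lay below those of 5FU and Ace, which overlapped by a narrow margin. Bgn fell by 1.51 ± 0.089 in Dox (FDR = 3.64e-24, edgeR's quasi-likelihood test), lower in 7 of 7 libraries than the control median. In 5FU it fell, at −0.80 ± 0.095 (FDR = 6.45e-11, same test), lower in 6 of 6 libraries, and in Ace the difference was −0.79 ± 0.087. The Dox value was −1.40 without library 7 of Dox, and the 5FU value −0.85 without library 1 of DMSO1.

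The 6 h levels of Bgn overlapped between every drug and its control, with medians of 548 CPM in DMSO2, 424 in Ace and 502 in Dox, and 406 in DMSO1 and 474 in 5FU. The DMSO2 libraries alone ran from 379 to 587 CPM. The Bgn differences were −0.014 in Dox, −0.28 in Ace (FDR = 0.0107, edgeR's quasi-likelihood test; lower in 6 of 6 libraries) and 0.27 in 5FU (FDR = 0.0124, higher in 6 of 6 libraries), none of them past the threshold. Both FDRs were near it: the 5FU difference passed at 0.30 without library 1 of 5FU, 0.29 without library 5 of 5FU, 0.29 without library 4 of DMSO1 and 0.32 without library 5 of DMSO1 (FDR 0.00379 to 0.00929), and the Ace difference at −0.31 without library 1 of Ace, −0.31 without library 1 of DMSO2 and −0.34 without library 3 of DMSO2 (FDR 0.00175 to 0.00762). The 5FU difference also passed with the Wald test of DESeq2 (0.28, FDR 0.00646), DESeq2 size factors (0.28, FDR 0.00878) and filterByExpr (0.28, FDR 0.00878), and that of Ace with the Wald test of DESeq2 (−0.28, FDR 0.00741).

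Asporin (Aspn) carries a stretch of aspartate, binds collagen and, like decorin, TGF-β, and lacks glycosaminoglycan chains. It had the widest range of group means among the members, with a ratio of 21.8 between the highest group, DMSO2 at 24 h, and the lowest, Dox at 24 h. The lowest, median and highest levels were 16.5, 19.5 and 23.2 CPM in DMSO2 at 24 h and 0.231, 0.964 and 1.58 in Dox, where the counts per library were 4 to 27. In Ace at 24 h they were 1.48, 1.62 and 2.57. They were 10.7, 15.4 and 17.4 in DMSO1 and 1.32, 2.56 and 3.87 in 5FU. Both controls at 24 h lay above every library of the other 8 groups, and the drug groups at 24 h overlapped their neighbours in the order of levels. Aspn fell in Dox, at −4.45 ± 0.27 (FDR = 1.75e-23, edgeR's quasi-likelihood test), lower in 7 of 7 libraries than the control median, and in 5FU, at −2.48 ± 0.25 (FDR = 4.35e-13), lower in 6 of 6 libraries. In Ace the difference was −3.43 ± 0.24, the value already known when the list was drawn up. Without library 7 of Dox the Dox difference was −4.36, and without library 1 of DMSO1 that of 5FU was −2.56.

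At 6 h the counts of Aspn were low in all groups. Its lowest, median and highest levels were 3.14, 4.18 and 7.67 CPM in DMSO2, 0.732, 2.80 and 4.53 in Dox and 2.14, 3.06 and 3.46 in Ace. In DMSO1 they were 2.68, 3.02 and 5.42, against 0.882, 1.74 and 3.81 in 5FU. All 3 drugs overlapped their control. Aspn fell in Dox, at −0.87 ± 0.24 (FDR = 0.00134, edgeR's quasi-likelihood test), lower in 6 of 7 libraries than the control median. The differences of −0.77 ± 0.25 in Ace (FDR = 0.0104, lower in 6 of 6 libraries) and −0.76 ± 0.28 in 5FU (FDR = 0.0166, lower in 4 of 6) missed the threshold of the same test by little. The Ace difference passed at −0.80 without library 1 of DMSO2, −0.85 without library 2 of DMSO2, −0.80 without library 3 of DMSO2 and −0.81 without library 4 of DMSO2 (FDR 0.00543 to 0.00997), and with library size alone (−0.80, FDR 0.00873) and the compared groups alone (−0.76, FDR 0.00399), and the 5FU difference at −1.02 without library 2 of 5FU and −0.94 without library 3 of 5FU (FDR 0.00225 to 0.00558). Without library 1 of 5FU the latter was −0.61 (FDR 0.0604).

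Lumican (Lum) belongs to the keratan sulphate branch of the family and limits the width of collagen fibrils. Its lowest, median and highest levels at 24 h were 199.6, 213 and 251 CPM in DMSO2 and 25.1, 44.4 and 45.2 in Dox. Ace at 24 h had 57.8, 72.7 and 84.9. DMSO1 at 24 h had 126, 192 and 202, and 5FU 56.2, 65.5 and 69.6. Dox was lowest with no overlap with 5FU, 5FU and Ace overlapped, and all 3 lay below every library of the other 7 groups. Lum fell, at −2.41 ± 0.087 in Dox (FDR = 3.29e-35, edgeR's quasi-likelihood test), lower in 7 of 7 libraries than the control median, and was at −1.50 ± 0.091 in 5FU (FDR = 3.63e-22), lower in 6 of 6. Its difference in Ace was −1.56 ± 0.084. Library 7 of Dox was the lowest, at 25.1 CPM, and without it the Dox difference was −2.29. Library 1 of DMSO1 was likewise the lowest of its group, at 126, and without it the 5FU difference was −1.59.

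At 6 h Lum was the only member wholly below DMSO2 in Dox as well as in Ace. The levels were 155, 166 and 183 CPM in DMSO2, 129, 134 and 151 in Dox and 120.4, 127 and 135 in Ace. The highest Dox library was just under the lowest DMSO2 library. Lum fell, at −0.29 ± 0.082 in Dox (FDR = 0.00121, edgeR's quasi-likelihood test), lower in 7 of 7 libraries than the control median, and was at −0.38 ± 0.085 in Ace (FDR = 0.000182), lower in 6 of 6. In 5FU the levels, 98.6, 119 and 132 CPM, covered those of DMSO1, 101, 112 and 129.9, and the difference was 0.056 with a 95% interval of −0.12 to 0.23. It was 0.068 without library 1 of 5FU.

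Fibromodulin (Fmod) shares a binding site on collagen with lumican and promotes cross-linking of fibrils. It was a low-count gene, with 49 to 175 counts per library. At 24 h its lowest, median and highest levels were 6.46, 6.80 and 9.47 CPM in DMSO2, 2.83, 3.67 and 4.10 in Dox and 3.60, 4.51 and 5.23 in Ace. They were 4.90, 6.06 and 7.80 in DMSO1 and 3.28, 3.90 and 4.57 in 5FU. The drug groups lay below their controls without overlap but overlapped each other. Fmod fell, at −1.04 ± 0.12 in Dox (FDR = 1.37e-12, edgeR's quasi-likelihood test), lower in 7 of 7 libraries than the control median, and was at −0.68 ± 0.12 in 5FU (FDR = 2.93e-06), lower in 6 of 6. The difference in Ace was −0.75 ± 0.11. Without library 7 of Dox and library 1 of DMSO1, respectively, the Dox and 5FU values were −1.02 and −0.74.

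The 6 h ranges of Fmod overlapped in all comparisons, at 5.99 to 7.69 CPM in DMSO2, 3.84 to 6.46 in Dox and 4.80 to 6.61 in Ace, and 4.85 to 7.32 in DMSO1 and 5.67 to 7.12 in 5FU. Fmod fell in Dox, at −0.31 ± 0.11, just past the threshold (FDR = 0.00994, edgeR's quasi-likelihood test), lower in 7 of 7 libraries than the control median. This call was lost at −0.31 without library 2 of DMSO2, −0.29 without library 3 of DMSO2, −0.29 without library 4 of DMSO2, −0.30 without library 5 of DMSO2, −0.32 without library 6 of DMSO2, −0.32 without library 7 of DMSO2, −0.31 without library 1 of Dox, −0.32 without library 2 of Dox, −0.29 without library 3 of Dox and −0.24 without library 4 of Dox (FDR 0.0103 to 0.0476). It was also lost with the Wald test of DESeq2 (−0.28, FDR 0.0181), DESeq2 size factors (−0.28, FDR 0.0212), the compared groups alone (−0.31, FDR 0.0133) and filterByExpr (−0.30, FDR 0.0117). The differences were −0.26 in Ace, with a 95% interval of −0.49 to −0.035, and 0.062 in 5FU, with −0.18 to 0.30.

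Prelp, the proline- and arginine-rich member, anchors basement membranes to the collagen below them. Its order of levels differed from that of the other members. At 24 h the lowest, median and highest levels were 14.6, 16.9 and 20.2 CPM in DMSO2, 19.6, 22.7 and 25.3 in Dox and 9.50, 12.7 and 14.9 in Ace. In DMSO1 they were 12, 16.9 and 17.9, and in 5FU 13.9, 17.2 and 19.6. Dox was above and Ace below DMSO2 with a narrow overlap in each case, Dox and Ace did not overlap, and 5FU and DMSO1 overlapped over most of their ranges. Prelp rose in Dox by 0.40 ± 0.083 (FDR = 1.42e-05, edgeR's quasi-likelihood test), higher in 7 of 7 libraries than the control median. It was 0.46 without library 7 of Dox. The difference in Ace was −0.43 ± 0.085. In 5FU it was 0.10 (95% interval −0.080 to 0.29), and 0.14 without library 1 of DMSO1.

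Prelp was also the member with the lowest FDR in Ace at 6 h. Its levels there were 19.1, 19.8 and 21.3 CPM, compared with 24.7, 27.9 and 30.1 in DMSO2 and 25.9, 28.9 and 32.2 in Dox. All Ace libraries lay below all DMSO2 libraries, and Dox overlapped DMSO2. Prelp fell in Ace, at −0.47 ± 0.084 (FDR = 5.33e-06, edgeR's quasi-likelihood test), lower in 6 of 6 libraries than the control median, and the difference in Dox was 0.045 with a 95% interval of −0.11 to 0.20. The ranges in 5FU, 23.8 to 33.2 CPM, and DMSO1, 23.4 to 30.6, overlapped, with a difference of −0.0041 (−0.18 to 0.17).

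The controls themselves moved with time in culture. Over both solvents, 4 of the 6 members were higher at 24 h than at 6 h, against 32.7% of all genes called higher, and 1 was lower, against 31.9% called lower. Aspn rose most, from medians of 3.02 CPM in DMSO1 and 4.18 in DMSO2 at 6 h to 15.4 and 19.5 at 24 h, with no overlap between the times, by 2.04 ± 0.16 (FDR = 1.48e-17, edgeR's quasi-likelihood test; higher in 13 of 13 libraries than the 6 h median). Bgn rose by 0.72 ± 0.064 (FDR = 1.39e-15, higher in 13 of 13), Lum by 0.53 ± 0.060 (FDR = 8.6e-12, higher in 12 of 13) and Dcn by 0.38 ± 0.052 (FDR = 4.08e-09, higher in 12 of 13) in the same test. Prelp fell, from medians of 27.1 and 27.9 CPM to 16.9 and 16.9, at −0.74 ± 0.060 (FDR = 3.42e-17, lower in 13 of 13 libraries). For Fmod the difference was 0.071, with a 95% interval of −0.090 to 0.23. Without library 1 of DMSO1 at 24 h, the differences were 0.41 for Dcn, 0.57 for Lum and 2.08 for Aspn. Beside the members, 9 of 12 fibroblast markers were higher at 24 h, with a median of 0.40, and 7 of 9 macrophage markers, with 0.73, and the part of these in the result was not tested. The drugs were thus compared at 24 h with controls in which Dcn, Bgn, Lum and Aspn stood higher than at 6 h.

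The 2 solvent controls also differed. At 6 h, Dcn, Bgn and Lum were lower in DMSO1, with more DMSO, than in DMSO2, 3 of 6 members against 6.60% of all genes called lower. Dcn and Lum did not overlap between the solvents, 2 members against 2.67%. Lum fell, at −0.55 ± 0.086 (FDR = 1.2e-06, edgeR's quasi-likelihood test; lower in 6 of 6 libraries than the DMSO2 median), Dcn, at −0.41 ± 0.075 (FDR = 2.16e-05, 6 of 6) and Bgn, at −0.36 ± 0.091 (FDR = 0.00207, 6 of 6). The Bgn call was lost at −0.32 without library 2 of DMSO1 and −0.30 without library 6 of DMSO1 (FDR 0.0123 to 0.0168), and with the compared groups alone (−0.36, FDR 0.0262). At 24 h all 6 members had lower values in DMSO1, 4 of them at an unadjusted p below 0.05, and 1 passed the threshold, Dcn, at −0.34 ± 0.074 (FDR = 0.00799, same test; lower in 6 of 6 libraries), 1 member against 0.295% of all genes called lower, and its ranges did not overlap, 1 member against 1.18%. The FDR was near the threshold, and the call was lost at −0.27 without library 1 of DMSO1, −0.33 without library 2 of DMSO1, −0.34 without library 5 of DMSO1, −0.34 without library 6 of DMSO1, −0.34 without library 2 of DMSO2, −0.34 without library 3 of DMSO2, −0.29 without library 5 of DMSO2, −0.31 without library 6 of DMSO2 and −0.36 without library 7 of DMSO2 (FDR 0.0114 to 0.0562). It was also lost with library size alone (−0.29, FDR 0.0241) and the compared groups alone (−0.33, FDR 0.0384). Beside the members at 6 h, 7 of 12 fibroblast markers were lower in DMSO1, with a median of −0.41 over that list. Of 9 endothelial markers 6 were lower, with −0.49, and of 11 cardiomyocyte markers 5 were higher and 1 lower. The summed level of smooth muscle and pericyte markers had medians of 3182 CPM in DMSO1 and 1509 in DMSO2. Of these 10 markers 3 were higher and 4 lower, with Acta2 at a mean of 1498 CPM in DMSO1 and 432.6 in DMSO2. No share of all genes called higher is given for this comparison, so the counts of higher markers are a description only. The part of these markers in the result was not tested. Levels under 5FU and under Ace or Dox are therefore each read against their own solvent.

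Whether a drug effect changed between the times was tested as the difference at 24 h minus the difference at 6 h. For 5FU this was lower for 5 of 6 members, all but Prelp, against 19.2% of all genes called lower. The change was −1.73 ± 0.11 for Dcn (FDR = 6.32e-20, edgeR's quasi-likelihood test), −1.72 ± 0.38 for Aspn (FDR = 0.000124) and −1.56 ± 0.13 for Lum (FDR = 6.39e-16). For Bgn it was −1.06 ± 0.13 (FDR = 1.04e-09), for Fmod −0.74 ± 0.17 (FDR = 0.000248) and for Prelp 0.11 ± 0.12 (FDR = 0.502). Without library 1 of 5FU at 6 h the changes were −1.72 for Dcn and −1.87 for Aspn, and without library 1 of DMSO1 at 24 h −1.79 and −1.80. Beside the members, the change was lower for 8 of 12 fibroblast markers and higher for 1, with a median of −0.85. It was lower for 7 of 11 cardiomyocyte markers, with −0.41. The part of these markers was not tested.

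For Dox the effect was lower at 24 h than at 6 h for 5 members, against 30.8% of all genes called lower, and higher for 1, against 34%. The change was −3.58 ± 0.37 for Aspn (FDR = 4.27e-13, edgeR's quasi-likelihood test), −2.15 ± 0.10 for Dcn (FDR = 8.94e-28) and −2.12 ± 0.12 for Lum (FDR = 1.29e-24). It was −1.49 ± 0.12 for Bgn (FDR = 7.09e-17) and −0.73 ± 0.16 for Fmod (FDR = 5.02e-05). Library-size scaling alone put the median of all genes at 0.27 here, against 0.065 with the scaling used, and the changes of these 5 members are larger than either value. Without library 7 of Dox at 24 h the changes were −3.5 for Aspn, −2.06 for Dcn, −2.01 for Lum, −1.40 for Bgn, −0.72 for Fmod and 0.41 for Prelp. Beside the members, the Dox effect was lower at 24 h for 11 of 11 cardiomyocyte markers, with a median of −2.18. It was lower for 9 of 12 fibroblast markers and 8 of 9 macrophage markers, with −1.74 and −1.84, and higher for 2 of 3 erythroid markers. The part of these markers was not tested. The change of Prelp with all libraries, 0.35 ± 0.12 (FDR = 0.00499), passed the threshold by little, and the call was lost at 0.32 without library 6 of DMSO2 at 24 h, 0.32 without library 5 of Dox at 24 h, 0.33 without library 6 of Dox at 6 h and 0.33 without library 7 of Dox at 6 h (FDR 0.0106 to 0.0126). For Ace the effect was lower at 24 h than at 6 h for 4 members, beside 6.06% of all genes. The changes, given without a test, were −2.67 for Aspn, −1.18 for Lum, −1.02 for Dcn and −0.52 for Bgn. Bgn left this count at −0.43 with library size alone, and Fmod entered it at −0.49 with the compared groups alone. For Ace, 6 of 12 fibroblast markers were lower in the same comparison, with a median of −0.56.

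The drugs were also compared with each other, each relative to its control. At 24 h the effect of Dox was lower than that of 5FU for 4 members, against 35.4% of all genes: −1.98 ± 0.38 for Aspn (FDR = 5.12e-06, edgeR's quasi-likelihood test), −0.91 ± 0.12 for Lum (FDR = 1.1e-09), −0.71 ± 0.13 for Bgn (FDR = 1.41e-06) and −0.59 ± 0.11 for Dcn (FDR = 1.57e-06). For Fmod the difference was −0.36 (95% interval −0.70 to −0.022) and for Prelp 0.30 (0.050 to 0.54), with Prelp past the threshold at 0.35 without library 2 of 5FU, 0.35 without library 5 of DMSO1 and 0.37 without library 6 of DMSO1 (FDR 0.00422 to 0.00887), and with the Wald test of DESeq2 (0.34, FDR 0.00893). Without library 7 of Dox the differences were −0.51 for Dcn and −0.81 for Lum, and without library 1 of DMSO1 −0.52 and −0.82. Beside the members at 24 h, 8 of 12 fibroblast markers were lower and 1 higher, with a median of −0.89. Of 11 cardiomyocyte markers 7 were lower, of 9 endothelial markers 7 and of 9 macrophage markers 8, with medians of −1.57, −1.89 and −1.06. Smooth muscle and pericyte markers had 4 higher and 4 lower. The part of these markers was not tested. At 6 h, edgeR's quasi-likelihood test called 0 members for the same contrast, against 45.9% of all genes in either direction, with 3 at an unadjusted p below 0.05 and 0 called by DESeq2. Lum alone passed there, at −0.40 without library 6 of 5FU, −0.39 without library 3 of DMSO1, −0.36 without library 2 of DMSO2 and −0.37 without library 7 of Dox (FDR 0.0043 to 0.00982), and with library size alone (−0.43, FDR 0.00406) and the compared groups alone (−0.33, FDR 0.0026).

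Dox and Ace share DMSO2, so their difference is that between their own libraries. At 6 h, Dcn, Bgn and Prelp were higher in Dox than in Ace, 3 members against 30.6% of all genes called higher. The difference was 0.52 ± 0.085 for Prelp (FDR = 2.51e-07, edgeR's quasi-likelihood test) and 0.31 ± 0.075 for Dcn (FDR = 0.000179), with no overlap between the drugs for either. Library-size scaling alone put the median of all genes at −0.11 in this contrast and left Dcn at 0.19 (FDR 0.024), no longer past the threshold. For Bgn the difference was 0.26 ± 0.091 (FDR = 0.00876), and this call was lost at 0.26 without library 2 of Ace, 0.27 without library 3 of Ace, 0.24 without library 4 of Ace, 0.27 without library 5 of Ace, 0.20 without library 6 of Ace, 0.23 without library 1 of Dox, 0.24 without library 2 of Dox, 0.26 without library 4 of Dox, 0.27 without library 5 of Dox and 0.26 without library 7 of Dox (FDR 0.0102 to 0.0541), and with library size alone (0.14, FDR 0.227). At 24 h, 4 members were lower in Dox than in Ace, beside 39.9% of all genes, and 1 was higher, beside 40.7%. The values, given without a test, were −1.02 for Aspn, −0.85 for Lum, −0.81 for Dcn, −0.71 for Bgn, −0.29 for Fmod and 0.83 for Prelp. For Aspn the difference was −0.89 without library 6 of Ace, −0.90 without library 2 of Dox, −0.85 without library 5 of Dox and −0.93 without library 7 of Dox, where it left the count. Beside the members at 24 h, 10 of 12 fibroblast markers were lower in Dox than in Ace, with a median of −1.02. Of 11 cardiomyocyte markers 10 were lower and 1 higher, with −1.76.

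The effect of Ace at 6 h was lower than that of 5FU for 4 members, against 13.8% of all genes called lower. The differences were −0.54 ± 0.13 for Bgn (FDR = 0.000548, edgeR's quasi-likelihood test), −0.48 ± 0.11 for Dcn (FDR = 0.000193), −0.47 ± 0.12 for Prelp (FDR = 0.00123) and −0.44 ± 0.12 for Lum (FDR = 0.00284). With library size alone as the scaling, Lum was at −0.40 and no longer passed (FDR 0.0136). Without library 1 of 5FU the values were −0.57 for Bgn and −0.46 for Dcn. At 24 h, 1 member was lower in Ace, Prelp at −0.53, beside 18.2% of all genes, and the other values, again without a test, were −0.96 for Aspn, 0.22 for Dcn, 0.00044 for Bgn, −0.075 for Fmod and −0.063 for Lum. For Aspn it was −1.11 without library 5 of 5FU, and −0.95 with the compared groups alone, where Aspn entered the count.

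**Figure D2:**
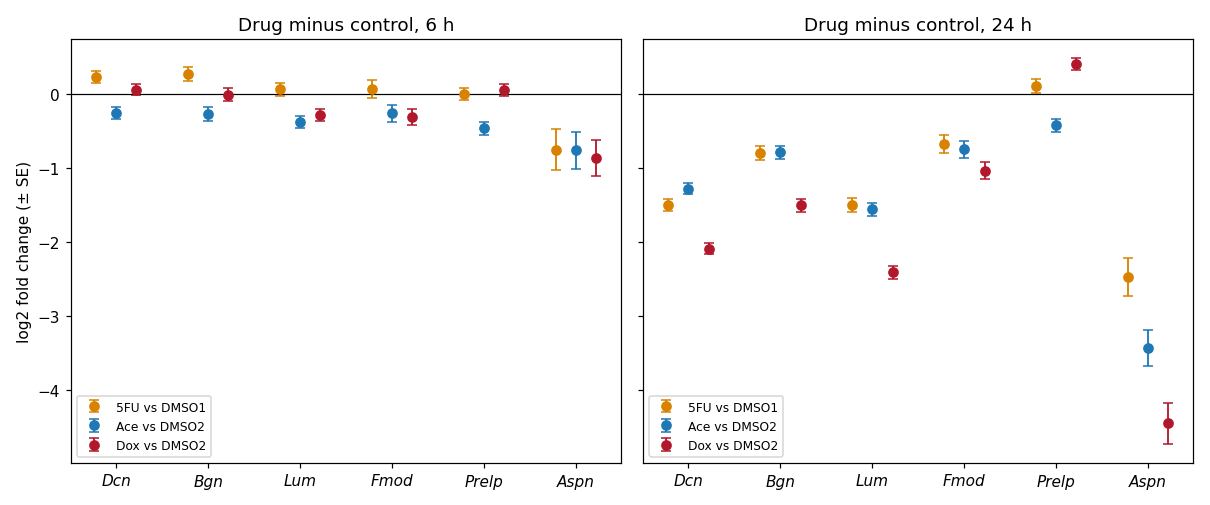
Log2 fold change (vertical axis) of each member (horizontal axis) against its control at 6 h and at 24 h (panels), with the SE as bars, for 5FU against DMSO1 (orange), Ace against DMSO2 (blue) and Dox against DMSO2 (red). At 24 h Dcn, Bgn, Lum, Fmod and Aspn lie below 0 for each drug, farthest in Dox (−4.45 for Aspn), and Prelp lies at 0.40 for Dox and −0.43 for Ace.

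Members did not move by the same amount. The ratio of Bgn to Dcn counts within a library, given as mean ± SD, lay between 2.66 ± 0.270 and 3.01 ± 0.518 over the 5 groups at 6 h. At 24 h it was 3.79 ± 0.347 in DMSO1 and 6.19 ± 0.315 in 5FU, with no overlap between them. It was 3.45 ± 0.373 in DMSO2, 4.85 ± 0.531 in Ace and 5.13 ± 0.383 in Dox. Every Dox library exceeded every DMSO2 library, and the lowest Ace library, at 3.84, was barely above the highest of DMSO2, at 3.82. These ratios were not tested. The ratio of Dcn to Lum, neighbours on a chromosome, stayed in a narrower span. At 6 h it was 1.39 ± 0.0550 in Dox, the highest of the 10 groups, 1.19 ± 0.0440 in Ace and 1.09 ± 0.0521 in DMSO2, with Dox above DMSO2 without overlap, and 1.35 ± 0.0955 in 5FU and 1.21 ± 0.0739 in DMSO1, which overlapped. It was 1 ± 0.0671 in DMSO1 and 0.992 ± 0.0536 in 5FU at 24 h, which overlapped, and 1.07 ± 0.0503 in DMSO2, 1.30 ± 0.0823 in Ace and 1.34 ± 0.0894 in Dox, which lay above DMSO2. Over all 10 groups, the highest group mean exceeded the lowest by a ratio of 5.31 for Lum, 4.27 for Dcn, 2.84 for Bgn, 2.26 for Prelp and 2.06 for Fmod.

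The pattern over the 10 group means of log2 CPM was compared with that of 10508 named genes whose counts averaged at least 100, by the root mean square difference after centring. For Dcn, which varied by 0.668 on this scale, the nearest genes were Rcn3, a calcium-binding protein of the secretory pathway, at 0.157, Lum at 0.172 and Ltbp4, a latent TGF-β binding protein, at 0.189. Lum, which varied by 0.710, was nearest to Gpm6b at 0.144, Serpinf1 at 0.149 and Dcn at 0.172. Bgn, with 0.405, was nearest to the collagen-degrading protease Ctsk at 0.0992, Ccdc167 at 0.131 and the collagen prolyl hydroxylase P3h3 at 0.140. Fmod, with 0.327, was nearest to P4ha2, also a collagen prolyl hydroxylase, at 0.0913, Vps9d1 at 0.135 and Gli3 at 0.145. Aspn, with 1.29, was nearest to the metallocarboxypeptidase Cpz at 0.473, the matricellular gene Postn at 0.525 and the matrix gene Frem1 at 0.530. These distances are larger than those of the other members, but they are not scaled to a gene's own variation, which was largest for Aspn. Prelp, with 0.392, was nearest to Ccdc86 at 0.129, Nme2 at 0.148 and Avpi1 at 0.153, none of them a matrix gene. With scaling to unit variance after centring, 3 of the 3 genes were shared for Dcn, 2 for Lum, 1 each for Bgn and Fmod, and 0 for Aspn and Prelp.

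The members lie in groups in the rat genome (RefSeq annotation, build GRCr8): Dcn and Lum on chromosome 7, Ogn, Omd and Aspn on chromosome 17, Prelp and Fmod on chromosome 13, and Bgn on X, with 0 protein-coding genes between the members of a group. Prelp and Fmod thus share a neighbourhood although Dox at 24 h moved them in opposite directions. Their flanking genes in Dox at 24 h were Atp2b4, a calcium pump, at −0.47 ± 0.10 (FDR = 3.78e-05, edgeR's quasi-likelihood test) and Btg2, a p53 target that slows growth, at 3.67 ± 0.12 (FDR = 9.15e-38). Beside Aspn lies Ecm2, itself a leucine-rich matrix gene. Ecm2 rose with time in the controls by 1.46 ± 0.11 (FDR = 1.99e-19, same test) and fell at 24 h, at −1.55 ± 0.16 in 5FU (FDR = 6.96e-13), −1.83 ± 0.14 in Ace (FDR = 6.69e-17) and −2.78 ± 0.16 in Dox (FDR = 7.04e-25). On the other side lies Cenpp, a centromere gene, which was at 0.57 in Dox at 24 h, a call lost at 0.45 without library 1 of DMSO2 and 0.51 without library 5 of Dox (FDR 0.0114 to 0.0165). Beside Lum lies Epyc, another SLRP, which fell with time in the controls, at −1.49 ± 0.15 (FDR = 1.32e-13). At 24 h Epyc was lower in Ace, at −1.20 ± 0.25 (FDR = 4.64e-05), and was at −0.60 in 5FU and 0.032 in Dox, both short of the threshold. Beside Dcn, Btg1 was at −0.20 ± 0.068 in Dox (FDR = 0.005), a call lost at −0.19 without library 2 of DMSO2, −0.19 without library 6 of DMSO2, −0.17 without library 3 of Dox, −0.18 without library 4 of Dox, −0.12 without library 6 of Dox and −0.15 without library 7 of Dox (FDR 0.0101 to 0.0849), and with the Wald test of DESeq2 (−0.16, FDR 0.0234), DESeq2 size factors (−0.16, FDR 0.0252), library size alone (−0.15, FDR 0.0527), the compared groups alone (−0.21, FDR 0.0101) and filterByExpr (−0.17, FDR 0.0166). Next to Bgn, Haus7 fell in Dox, at −1.20 ± 0.090 (FDR = 2.12e-19). On its other side Atp2b3 was at 0.55 ± 0.21 (FDR = 0.0152), short of the threshold, which it passed at 0.63 without library 3 of Dox and 0.64 without library 6 of Dox (FDR 0.00681 to 0.00744), and with the Wald test of DESeq2 (0.60, FDR 0.00822), DESeq2 size factors (0.59, FDR 0.00909), library size alone (0.59, FDR 0.00874) and the compared groups alone (0.55, FDR 0.00431).

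Promoter sequences are shown for Aspn, Fmod and Lum, 3 of the 5 members that fell in both 5FU and Dox at 24 h, as the members with an entry. Of the 6 members, 3 matched an entry in the RefSeq promoter table (build GRCr8), and Dcn, Bgn and Prelp did not. The 150 bases before the start are printed 5′ to 3′ on the strand of the gene, at chr17:15310470-15310619 on the minus strand for Aspn, chr13:48045417-48045566 on the plus strand for Fmod and chr7:34245556-34245705 on the plus strand for Lum. Capitals mark matches on either strand to a TATA box (TATAAA, in 8% of all 33469 promoters of this length), a CCAAT box (in 23.5%), the GC box GGGCGG (in 26%) and the AP-1 site, spelled TGA, any base, then TCA (in 3.69%). Aspn had 0 matches, Fmod 1 GGGCGG and Lum 1 CCAAT on the other strand, read as ATTGG, so no motif was shared. A match describes the sequence only.
Aspn: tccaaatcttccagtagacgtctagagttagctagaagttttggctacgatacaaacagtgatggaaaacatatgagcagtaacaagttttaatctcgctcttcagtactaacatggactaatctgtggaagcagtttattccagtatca
Fmod: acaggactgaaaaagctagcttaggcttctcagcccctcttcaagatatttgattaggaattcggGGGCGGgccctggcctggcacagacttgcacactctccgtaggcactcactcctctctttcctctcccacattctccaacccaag
Lum: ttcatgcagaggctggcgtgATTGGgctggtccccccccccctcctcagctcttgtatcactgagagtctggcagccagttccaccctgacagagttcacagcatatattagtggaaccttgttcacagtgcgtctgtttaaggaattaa

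The genes around the family were counted in lists. Of 18 partners of SLRPs in the matrix, fibrillar and other collagens, elastic fibre genes and cross-linking enzymes, 16 were in the table. All 16 were lower in 5FU at 24 h, with a median log2 difference of −1.39. In Ace 15 were lower, with a median of −0.75, and in Dox 13 were lower and 3 higher, with −1.59. Of all genes 27.8% were lower in 5FU, 19.1% in Ace and 41% in Dox, and 40.4% were higher in Dox. Col1a1, which encodes a chain of type I collagen, the main ligand of decorin, fell, at −1.25 ± 0.17 in 5FU, −0.82 ± 0.15 in Ace and −2.09 ± 0.16 in Dox (FDR = 2.31e-09, 9.31e-06 and 5.61e-19, edgeR's quasi-likelihood test). Col3a1 fell, at −2.07 ± 0.11, −1.33 ± 0.10 and −2.64 ± 0.11 (FDR = 7.72e-24, 4.27e-17 and 2.79e-32). The cross-linking enzyme Lox differed between drugs: it fell, at −1.68 ± 0.19 in 5FU (FDR = 9.01e-12) and −1.14 ± 0.17 in Ace (FDR = 3.31e-08), and rose by 0.53 ± 0.16 in Dox (FDR = 0.00164), a call lost with the compared groups alone (0.53, FDR 0.0133). In the controls, 12 of these partners were higher at 24 h than at 6 h, as were Dcn, Bgn, Lum and Aspn, and 2 were lower, among them Lox at −0.70 ± 0.12 (FDR = 3.05e-07). Of all genes 32.7% were higher with time and 31.9% lower.

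Of 12 genes that process or cleave SLRPs, 10 were in the table. In 5FU 7 were lower at 24 h and in Ace 6, with medians of −0.76 and −0.63, and in Dox 5 were higher and 5 lower, near the 40.4% and 41% of all genes, where 27.8% were lower in 5FU and 19.1% in Ace. Bmp1, the protease that trims the propeptide of biglycan, rose in Dox by 0.36 ± 0.052 (FDR = 4.55e-09, edgeR's quasi-likelihood test), while the procollagen enhancer Pcolce fell by 0.61 ± 0.051 (FDR = 2.15e-17). The membrane protease Mmp14 fell, at −0.75 ± 0.11 in 5FU, −0.54 ± 0.10 in Ace and −1.09 ± 0.10 in Dox (FDR = 1.15e-08, 6.6e-06 and 1.72e-15). It rose with time in the controls by 1.27 ± 0.074 (FDR = 9.37e-24).

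Counts of the enzymes that build the glycosaminoglycan chains are read against the shares of all genes at 24 h, 27.8% lower in 5FU, 19.1% lower in Ace, and 40.4% higher and 41% lower in Dox, and the Dox counts are near that background. All 6 genes of the linker to the core protein were in the table, and at 24 h 2 were higher and 2 lower in 5FU, 2 higher in Ace, and 3 higher and 2 lower in Dox. In Dox, Xylt2, which adds the initial xylose, fell, at −1.23 ± 0.051 (FDR = 2.7e-32, edgeR's quasi-likelihood test), and B4galt7, which adds the next sugar, fell, at −1.08 ± 0.074 (FDR = 5.4e-21). Among the linker genes that rose were Fam20b, by 0.52 ± 0.036 (FDR = 5.64e-21, same test), and B3gat3, by 0.57 ± 0.047 (FDR = 1.36e-17). Of 16 enzymes of chondroitin and dermatan sulphate, 1 was higher and 8 lower in 5FU, 2 higher and 6 lower in Ace, and 8 higher and 5 lower in Dox. Dse, the epimerase that makes dermatan sulphate, fell, at −0.87 ± 0.092 in 5FU (FDR = 1.66e-12) and −0.67 ± 0.082 in Ace (FDR = 4.65e-10), with −0.0064 in Dox. Chpf, a subunit of the chain polymerase, rose by 0.61 ± 0.049, 0.46 ± 0.045 and 0.24 ± 0.045 in the 3 drugs (FDR = 8.88e-17, 2.47e-13 and 2.56e-06). Of 7 keratan sulphate enzymes, 1 was higher and 3 lower in 5FU, 1 higher and 2 lower in Ace, and 4 higher and 2 lower in Dox, where the galactosyltransferase B4galt1 rose by 1.51 ± 0.056 (FDR = 9.92e-35) and its relative B4galt4 fell by 1.51 ± 0.10 (FDR = 2.97e-22).

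All 20 genes of a list of growth factors and receptors linked to SLRPs were in the table. At 24 h 2 were higher and 12 lower in 5FU, 1 higher and 12 lower in Ace, and 7 higher and 8 lower in Dox, with medians of −0.45, −0.49 and −0.20. Against 40.4% of all genes higher and 41% lower, the Dox counts are near the background, while 27.8% were lower in 5FU and 19.1% in Ace. Tgfb1, the ligand most often studied with decorin, was at −0.21, −0.17 and −0.19, none of them past the threshold. Its receptor Tgfbr2 fell in Dox, at −1.41 ± 0.062 (FDR = 1.27e-30, edgeR's quasi-likelihood test), and the co-receptor Tgfbr3, at −2.13 ± 0.091 (FDR = 2.33e-31), while the ligand Tgfb2 rose by 2.10 ± 0.18 (FDR = 2.41e-16). Lrp1, through which decorin signals and is taken up, fell, at −1.45 ± 0.20 in 5FU (FDR = 4.05e-09), −0.68 ± 0.18 in Ace (FDR = 0.00121) and −0.93 ± 0.18 in Dox (FDR = 5e-06).

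Of 10 other SLRPs, 7 were in the table. At 24 h 1 was lower in 5FU, 4 were lower in Ace, and 3 were higher and 2 lower in Dox. The 5FU count was 2 without library 3 of 5FU. These counts, and those of the next list, are read against the shares of all genes at 24 h. The shares were 27.8% lower in 5FU, 19.1% lower in Ace, and 40.4% higher and 41% lower in Dox. Tsku rose in Dox by 1.22 ± 0.069 (FDR = 4.72e-25, edgeR's quasi-likelihood test) and fell in Ace, at −0.55 ± 0.072 (FDR = 2.41e-09), and Chadl rose in Dox by 1.60 ± 0.18 (FDR = 2.42e-12) and fell in Ace, at −0.93 ± 0.21 (FDR = 0.000142). These Dox counts, and those of the next list, are also near the shares of all genes. Of 19 large and cell surface proteoglycans, 15 were in the table, with 1 higher and 8 lower in 5FU, 1 higher and 7 lower in Ace, and 6 higher and 6 lower in Dox. The large matrix proteoglycan Vcan fell, at −1.43 ± 0.084 in 5FU (FDR = 8.7e-23) and −0.62 ± 0.075 in Ace (FDR = 2.55e-10) and was at 0.11 in Dox, where agrin (Agrn), a basement membrane proteoglycan, rose by 2.14 ± 0.10 (FDR = 1.15e-28).

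Markers of heart cell types moved beside the members. All 12 fibroblast markers listed were in the table, with Col1a1 adding most to their sum, and 4 of them, Col1a1, Col1a2, Col3a1 and Loxl1, are also among the matrix partners above. Counts of the marker lists at 24 h are read against the shares of all genes. These were 27.8% lower in 5FU, 19.1% lower in Ace, and 40.4% higher and 41% lower in Dox. At 24 h 11 of the 12 fibroblast markers were lower in 5FU, 11 in Ace and 11 in Dox, with medians of −0.91, −1.03 and −2.09. The summed level of the list had lowest, median and highest values of 14899.7, 16370 and 18713 CPM in DMSO2, 1952, 3538 and 4111 in Dox and 7253, 7827 and 9264 in Ace. It was 9851, 16072 and 19727 in DMSO1 and 5158, 5623 and 5818 in 5FU. The order of these sums at 24 h, Dox, 5FU, Ace and then the controls, was that of the mean levels of Dcn, Bgn, Lum and Fmod. This order compares levels across solvents. Against their own controls, Lum was at −1.56 in Ace and −1.50 in 5FU, and Dcn at −1.28 and −1.51. The medians of the list were −1.03 in Ace and −0.91 in 5FU, the reverse of the order of the sums. At 6 h the medians were 12226 in DMSO2, 8699 in Dox, 9437 in Ace, 9074 in DMSO1 and 8420.0 in 5FU. Pdgfra, a receptor that marks fibroblasts, fell in Dox, at −2.37 ± 0.10 at 6 h and −2.93 ± 0.10 at 24 h (FDR = 4.33e-31 and 7.09e-37, edgeR's quasi-likelihood test), and the transcription factor Tcf21, at −1.93 ± 0.11 and −1.92 ± 0.11 (FDR = 7.33e-24 and 7.24e-25). At 6 h 3 of the 12 markers were lower in 5FU, 7 in Ace and 6 in Dox, with medians of −0.14, −0.38 and −0.38. Of all genes 15.2% were lower in Ace and 32.7% in Dox, and 47.9% were called in either direction in 5FU. Dcn was at 0.22, −0.26 and 0.052 in these comparisons. In Dox, Lum, Fmod and Aspn were at −0.29, −0.31 and −0.87, and Bgn and Prelp at −0.014 and 0.045. The part of fibroblast markers in the results for the members was not tested.

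Cardiomyocyte markers, of which 11 of 12 were in the table, were present in all 10 groups, as in cultures named for these cells, with Myh6 adding most over all libraries. The median of their sum in CPM was 53946 in 5FU, 59189 in DMSO1, 45333 in Ace, 52482 in Dox and 44044 in DMSO2 at 6 h, and 28897, 43528, 46622, 15388 and 48976 at 24 h. At 24 h 1 was higher and 7 lower in 5FU, 1 higher and 4 lower in Ace, and 10 lower in Dox. Myh6 fell in Dox, at −4.13 ± 0.11 (FDR = 2e-41, edgeR's quasi-likelihood test) and Tnnt2, at −0.21 ± 0.055 (FDR = 0.000382). Transcripts of muscle cells were thus lower in Dox at 24 h beside the members.

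Of 10 endothelial markers, 9 were in the table, with Cdh5 adding most, and 6 were lower in 5FU, 6 in Ace and 8 in Dox at 24 h. Their summed medians were 196 in 5FU, 210.2 in DMSO1, 224 in Ace, 117 in Dox and 296 in DMSO2 at 6 h, and 186, 278, 224, 59.2 and 338 at 24 h. Of 10 macrophage markers, 9 were in the table, with Lyz2 adding most. At 24 h 1 was higher and 3 lower in 5FU, 5 lower in Ace (3 without library 2 of Ace, or library 2, 3 or 7 of DMSO2) and 9 lower in Dox, and the summed medians were 60.7 in 5FU, 60.2 in DMSO1, 57.3 in Ace, 68.9 in Dox and 65.3 in DMSO2 at 6 h, and 97.3, 119.7, 85.9, 52.6 and 119 at 24 h. All 10 smooth muscle and pericyte markers were present, with Acta2 adding most over all libraries, and with 2 higher and 7 lower in 5FU, 6 lower in Ace, and 3 higher and 6 lower in Dox. Their summed medians were 2527 in 5FU, 3182 in DMSO1, 1224 in Ace, 3357 in Dox and 1509 in DMSO2 at 6 h, and 857, 1438, 1112, 1649 and 1487 at 24 h. The Dox counts of this list, and the 5FU count of lower macrophage markers, are near the shares of all genes. The summed levels of endothelial and macrophage markers were lowest in Dox at 24 h, as were the mean levels of Dcn, Bgn, Lum, Fmod and Aspn.

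All 8 epicardial markers were in the table, Tbx18 adding most, with 7 lower in 5FU, 1 higher and 6 lower in Ace, and 2 higher and 5 lower in Dox, and summed medians of 30.3 in 5FU, 43.3 in DMSO1, 39.6 in Ace, 40.4 in Dox and 50.1 in DMSO2 at 6 h, and 23.9, 40.7, 30.5, 48.9 and 41.2 at 24 h. Of 5 erythroid markers 3 were in the table, with Hba-a1 adding most. These 3 were higher in 5FU and Dox at 24 h, opposite to most members, and the summed medians were 54.8 in 5FU, 33.3 in DMSO1, 45.9 in Ace, 85.4 in Dox and 32.1 in DMSO2 at 6 h, and 60.1, 25.7, 17.9, 61.8 and 19.4 at 24 h. The Dox counts of epicardial markers are also near the shares of all genes. In these 7 marker lists, 0 genes in the table were at 0 in all libraries of a group. The part of these cell types in the results was not tested.

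These values describe transcripts in whole cultures of newborn rat cells at 1 concentration and 2 times per drug. Proteins, glycosaminoglycan chains and secretion were not measured. The cultures shared pooled cells, so the spread between animals is unknown, and the counts do not separate cell types. The solvent differed between 5FU and the other drugs, and Dcn and Lum differed between solvents at 6 h, as did Bgn in most fits. Aspn and Fmod had few counts, with 4 to 27 for Aspn in Dox at 24 h. The columns carry no replicate numbers, so cultures could not be paired. Values of Ace at 24 h were known when members were chosen and carry no test.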

How the data were processed

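Rat heart cell cultures were sequenced as polyadenylated RNA in 65 libraries of 10 groups. The authors assigned reads with kallisto 0.46.0 to Ensembl v96 transcripts, summed them to Entrez genes with tximport and removed genes with counts below 10 throughout; the deposited values are estimated counts, in whole numbers. Library totals are given with the samples. Counts were analysed in R 4.3.3 with edgeR 4.0.16: TMM scaling, 1 fit with 10 groups, the quasi-likelihood test and 18 contrasts, with FDR < 0.01 over 14554 genes. The filter of at least 10 counts in at least 1 library removed 0 genes. Members and lists were chosen with earlier results of these data known. Values of 1 further marker list are not reported here.

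Genes named, not all of them in the text, were drawn from all members, the 4 genes of each list with the highest mean CPM, genes with a set role in SLRP biology, other SLRPs, chromosomal neighbours, and the 3 genes nearest in pattern to each member. Sequences and positions are from RefSeq, build GRCr8. Alternatives tried were the Wald test of DESeq2 1.42.0, its size factors in edgeR, library size only, fits of the compared groups only, filterByExpr, no filter, FDR < 0.1, FDR < 0.01 with an absolute log2 difference of at least 1, and leaving out each library. The tests were also run on simulated data. Log2 values are rounded to 2 decimals and others to 3 significant digits.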

Additional observations from a re-analysis of the deposited data

Results flagged for a closer look

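In 7 of the 60 combinations of a member and a group, 1 library lay far from the others by Dixon's criterion at 95%, and chance flags about 1 in 20 groups. For Dcn these were library 1 of 5FU at 24 h at 54.6 CPM, with the nearest at 64.2, library 1 of DMSO1 at 24 h at 139.5 CPM, with the nearest at 181, and library 7 of Ace at 24 h at 121 CPM, with the nearest at 97.7. For Lum they were library 1 of DMSO1 at 24 h at 126 CPM, with the nearest at 188, library 7 of Dox at 24 h at 25.1 CPM, with the nearest at 37.9, and library 5 of DMSO2 at 24 h at 251 CPM, with the nearest at 221. For Prelp it was library 4 of 5FU at 6 h at 33.2 CPM, with the nearest at 27.3.

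The drug effect differed between 24 h and 6 h, by edgeR's quasi-likelihood test, for 5 members in 5FU and 6 in Dox. In 5FU the difference of the effects was −1.73 for Dcn, −1.06 for Bgn, −1.56 for Lum, −0.74 for Fmod and −1.72 for Aspn. In Dox it was −2.15 for Dcn, −1.49 for Bgn, −2.12 for Lum, −0.73 for Fmod, −3.58 for Aspn and 0.35 for Prelp. No explanation was tested for these values.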

How the results depend on the processing

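Of 2688 values of member differences under an alternative, 2540 kept their direction and side of the threshold, 50 lost a call, 36 gained one and 62 changed sign. Group means of levels stayed within 1 SD of the group in 119 of 120 values, the exception being Lum in Dox at 6 h, at 127 CPM with library size only. List counts stayed within 1.5 times in 3020 of 3248 values, and differences of other genes kept direction and call in 1875 of 1937. With unit variance only Dcn kept all 3 nearest genes. No filter changed nothing, since the filter removed 0 genes. No paired analysis was possible because the columns carry no replicate numbers, and the protein comparison was not run. Members with few counts, Aspn and Fmod, limit what these depths can resolve. Higher or lower thresholds change counts by construction; for the other changes the cause was not tested.

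Changes of over 1.5 times in the number of members called come before smaller ones. With the DESeq2 Wald test, the number of members called became 2 for 5FU at 6 h. With DESeq2 size factors, the number of members called became 2 for 5FU at 6 h. With filterByExpr, the number of members called became 2 for 5FU at 6 h. With FDR below 0.1, the number of members called became 3 for 5FU at 6 h, 6 for Ace at 6 h and 3 for Dox minus 5FU at 6 h. With log2 fold change of at least 1, the number of members called became 3 for 5FU at 24 h, 0 for Ace at 6 h, 0 for Dox at 6 h, 0 for DMSO1 against DMSO2 at 6 h, 0 for DMSO1 against DMSO2 at 24 h, 1 for time in the controls, 0 for Dox minus Ace at 6 h, 1 for Dox minus 5FU at 24 h and 0 for Ace minus 5FU at 6 h. With library size only, the number of members called became 0 for DMSO1 against DMSO2 at 24 h, 1 for Dox minus Ace at 6 h and 1 for Dox minus 5FU at 6 h. With compared groups only, the number of members called became 0 for DMSO1 against DMSO2 at 24 h and 1 for Dox minus 5FU at 6 h. Smaller changes were, with the DESeq2 Wald test, 4 for Ace at 6 h, 2 for Dox at 6 h and 5 for Dox minus 5FU at 24 h; with library size only, 4 for Ace at 6 h and 3 for Ace minus 5FU at 6 h; with compared groups only, 4 for Ace at 6 h, 2 for Dox at 6 h and 2 for DMSO1 against DMSO2 at 6 h; with DESeq2 size factors, 2 for Dox at 6 h; with filterByExpr, 2 for Dox at 6 h; with log2 fold change of at least 1, 5 for Dox at 24 h, 4 for 5FU effect, 24 h minus 6 h and 4 for Dox effect, 24 h minus 6 h; with FDR below 0.1, 6 for Dox minus 5FU at 24 h. With library size only, the sign reversed in uncalled differences, to −0.018 for Lum, 5FU at 6 h, −0.013 for Fmod, 5FU at 6 h, −0.10 for Dcn, Dox at 6 h, −0.11 for Prelp, Dox at 6 h, −0.032 for Lum, Dox minus Ace at 6 h, −0.035 for Prelp, Dox minus 5FU at 6 h, 0.020 for Aspn, Ace minus 5FU at 6 h and 0.0043 for Lum, Ace minus 5FU at 24 h. With the DESeq2 Wald test, the sign reversed in uncalled differences, to 0.0073 for Prelp, 5FU at 6 h, 0.020 for Bgn, Dox at 6 h and −0.0060 for Bgn, Ace minus 5FU at 24 h. With DESeq2 size factors, the sign reversed in uncalled differences, to 0.0072 for Prelp, 5FU at 6 h, 0.020 for Bgn, Dox at 6 h and −0.0061 for Bgn, Ace minus 5FU at 24 h. With filterByExpr, the sign reversed in uncalled differences, to 0.0055 for Prelp, 5FU at 6 h and −0.0088 for Bgn, Ace minus 5FU at 24 h.

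Leaving out 1 library at a time, the number of members called ran from 0 to 1 for 5FU at 6 h, 5 to 5 for 5FU at 24 h, 3 to 5 for Ace at 6 h, 2 to 3 for Dox at 6 h, 6 to 6 for Dox at 24 h, 2 to 3 for DMSO1 against DMSO2 at 6 h, 0 to 1 for DMSO1 against DMSO2 at 24 h, 5 to 5 for time in the controls, 5 to 5 for 5FU effect, 24 h minus 6 h, 5 to 6 for Dox effect, 24 h minus 6 h, 2 to 3 for Dox minus Ace at 6 h, 0 to 1 for Dox minus 5FU at 6 h, 4 to 5 for Dox minus 5FU at 24 h and 4 to 4 for Ace minus 5FU at 6 h. In comparisons that include Ace at 24 h the members carry no test, so the number of members past the threshold in use is a description from which no stability is read. It was, with FDR below 0.1, 3 for Ace minus 5FU at 24 h, 5 for Ace effect, 24 h minus 6 h and 6 for Dox minus Ace at 24 h; with log2 fold change of at least 1, 3 for Ace at 24 h, 1 for Dox minus Ace at 24 h, 0 for Ace minus 5FU at 24 h and 3 for Ace effect, 24 h minus 6 h; with compared groups only, 2 for Ace minus 5FU at 24 h and 5 for Ace effect, 24 h minus 6 h; with library size only, 3 for Ace effect, 24 h minus 6 h; and leaving out 1 library at FDR 0.01, 6 to 6 for Ace at 24 h, 4 to 4 for Ace effect, 24 h minus 6 h, 4 to 5 for Dox minus Ace at 24 h and 1 to 2 for Ace minus 5FU at 24 h. Signs turned in at least 1 such fit where the ranges were −0.074 to 0.033 for Prelp, 5FU at 6 h, −0.073 to 0.031 for Bgn, Dox at 6 h, −0.12 to 0.14 for Epyc, Dox at 24 h, −0.069 to 0.0071 for Prelp, DMSO1 against DMSO2 at 6 h, −0.0028 to 0.10 for Prelp, Ace effect, 24 h minus 6 h, −0.10 to 0.023 for Fmod, Dox minus Ace at 6 h, −0.27 to 0.055 for Aspn, Dox minus Ace at 6 h, −0.27 to 0.15 for Aspn, Dox minus 5FU at 6 h, −0.17 to 0.26 for Aspn, Ace minus 5FU at 6 h, −0.052 to 0.052 for Bgn, Ace minus 5FU at 24 h and −0.10 to 0.024 for Lum, Ace minus 5FU at 24 h.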
